A study of Mus musculus with 32 samples.

Results

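Wild type mouse photoreceptors taken at circadian time (CT) 1 were compared with those taken at CT22, the 3-hour step over which eyes were sampled around the onset of outer segment phagocytosis. The members are the 4 wild type libraries whose labels end in CT1 and the 4 whose labels end in CT22, 8 libraries of the 32 in the series. Circadian time counts hours of the internal day, with CT0 as subjective dawn, so CT22 lies late in the subjective night and CT1 just after dawn.

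The series covers wild type and Per1-/-Per2Brdm1 mice at 4 times (CT19, CT22, CT1, CT10) and holds 4 libraries for each of the 8 groups. Per the labels' protocols, all mice were 6-week-old males of strain C57BL/6/J x 129 SvEvBrd, eyes were snap-frozen, and photoreceptors were cut out of each eye by laser capture microdissection. The mutant mice lack Per1 and carry the Brdm1 allele of Per2 in every cell, and they enter here only as a comparison. The wild type mice carry no named allele, and no treatment is given for any group. The CT22 libraries carry the animal numbers 1, 2, 3 and 6. The CT1 libraries carry the numbers 1, 3 and 4, and the library called replicate 5 here has both 5 and 6 in its title, so it may hold more than 1 animal. The p-values take these numbers as separate animals.

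Rods and cones renew their outer segments every day by adding membrane at the base and shedding the tip. The pigment epithelium behind them engulfs the shed tips in a burst near dawn that persists without light. Before engulfment the tips expose phosphatidylserine, a lipid that flippases otherwise keep on the inner side of the membrane, and bridging proteins link this lipid to receptors on the epithelium. The circadian clock that times such rhythms is a loop in which ARNTL (BMAL1) and CLOCK switch on their own repressors, the PER and CRY proteins.

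In wild type photoreceptors no gene passed the test between CT22 and CT1. Of 17871 genes tested with edgeR's quasi-likelihood test, 0 (0%) had an adjusted p under 0.05, and the smallest adjusted p was 0.242. At an unadjusted p under 0.05 there were 1879 genes (10.5%), 995 higher at CT1 (5.57%) and 884 lower (4.95%). The 4 CT1 libraries lay entirely above the 4 CT22 libraries for 345 genes (1.93%) and entirely below for 307 (1.72%), 652 in all (3.65%). DESeq2, run on the same counts, called 9 genes. The library totals were 24875415 to 30128180 counts at CT1 and 27746832 to 33397955 at CT22, so a level of 1 CPM (counts relative to the library total, scaled for library composition) rested on at least 23.3 counts.

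How large a step could still have been present differed by gene. All differences below are log2 values, CT1 minus CT22, with a standard error (SE) and a 95% interval for that gene alone, not widened for the number of genes. Over all tested genes the median difference was 0.01 and the median SE 0.19. The interval lay within 1.5-fold in either direction for 9235 genes (51.7%), and for 74.9% of the 12196 genes with an average log2 CPM of at least 1. It lay within 2-fold for 0 of 17 lens markers and 1 of 13 pigment epithelium markers, so for those genes large steps remain possible.

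The core clock genes gave no call between CT22 and CT1, and most of them were measured closely enough to bound the step. None of the 24 tested members passed. Unadjusted, 2 members (Bhlhe40 and Rorb) were under 0.05 against 10.5% of all genes, and for no member were the groups apart. The median difference was -0.09, against 0.01 over all genes, with 6 members above 0 and 18 below. The interval lay within 1.5-fold for 20 of the 24 members. The wider ones included Npas2, Fbxl21 and Bhlhe40, each at 10.2 CPM or less in each of the 8 libraries.

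Of the activators, Arntl (ENSMUSG00000055116, GRCm38 chromosome 7, 113207465 to 113314126), the partner of CLOCK, was among the most precisely measured. Arntl stood at 164.7, 154.5, 153.9 and 154.5 CPM in the CT22 libraries and at 152.5, 161.7, 157.1 and 153.0 CPM in the CT1 libraries. The 2 sets were interleaved, with means of 157 ± 5.20 and 156 ± 4.27 CPM (SD, n = 4 each). The difference was -0.01 (interval -0.14 to 0.12, adjusted p = 0.981). Clock stood at 178.1 to 184.2 CPM in 3 CT22 libraries and 159.0 in the other, against 135.1 to 183.3 CPM at CT1, a difference of -0.14 (interval -0.32 to 0.04). Npas2, a relative of Clock, was close to the limit of measurement at 0.28 to 1.33 CPM over the 8 libraries.

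Of the repressors, the Per genes spread more widely than Arntl and Clock, and 1 CT1 library stood apart from the other 3. Per1 stood at 112.1, 129.0, 145.5 and 138.9 CPM at CT22. At CT1 Per1 stood at 94.4, 101.4 and 98.8 CPM in replicates 1, 3 and 5 and at 143.2 in replicate 4. Replicate 4 thus lay with the CT22 libraries, and the other 3 lay below all of them. The same library was the highest of the CT1 group for Per2, at 44.3 CPM against 24.9 to 27.8, and for Per3, at 202.1 CPM against 96.8 to 126.5. The differences were -0.26 ± 0.15 (SE) for Per1, -0.20 ± 0.18 for Per2 and -0.16 ± 0.17 for Per3, with adjusted p of 0.542, 0.723 and 0.773. Without CT1 replicate 4 they were -0.42, -0.43 and -0.45. With the level of lens markers as a covariate they were -0.17, -0.12 and -0.02. With the level of bipolar, amacrine and Müller markers instead, they were -0.44, -0.22 and -0.40. Cry1 and Cry2, the partners of the PER proteins, gave 0.07 (interval -0.08 to 0.22) and -0.06 (interval -0.23 to 0.11).

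The nuclear receptors and the output factors of the loop gave no call either. Nr1d1 and Nr1d2 encode the REV-ERB repressors of Arntl and gave -0.08 ± 0.10 and -0.13 ± 0.08. Rora and Rorb encode receptors that act on the same sites, and Rorb is also needed for rod development. Rorb stood at 925.2 to 985.1 CPM at CT22 and at 721.9, 817.4, 975.7 and 684.8 CPM at CT1. Replicate 4 was again the CT1 library that reached the CT22 range, and the difference of -0.25 ± 0.12 had an adjusted p of 0.471. With the lens level as a covariate the difference of Rorb was -0.05. With the level of bipolar, amacrine and Müller markers it was -0.30, and with both levels -0.06. The PAR-bZIP activators Dbp, Tef and Hlf gave -0.10, -0.03 and -0.19, and Nfil3, which competes with them for the same sites, gave 0.00 (interval -0.38 to 0.38). Exons of Dbp, Tef, Nr1d1, Csnk1d and Bhlhe41 overlap a tested gene on the other strand, and the strand setting of the counting is not given, so their values are less certain.

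**Figure D1:**
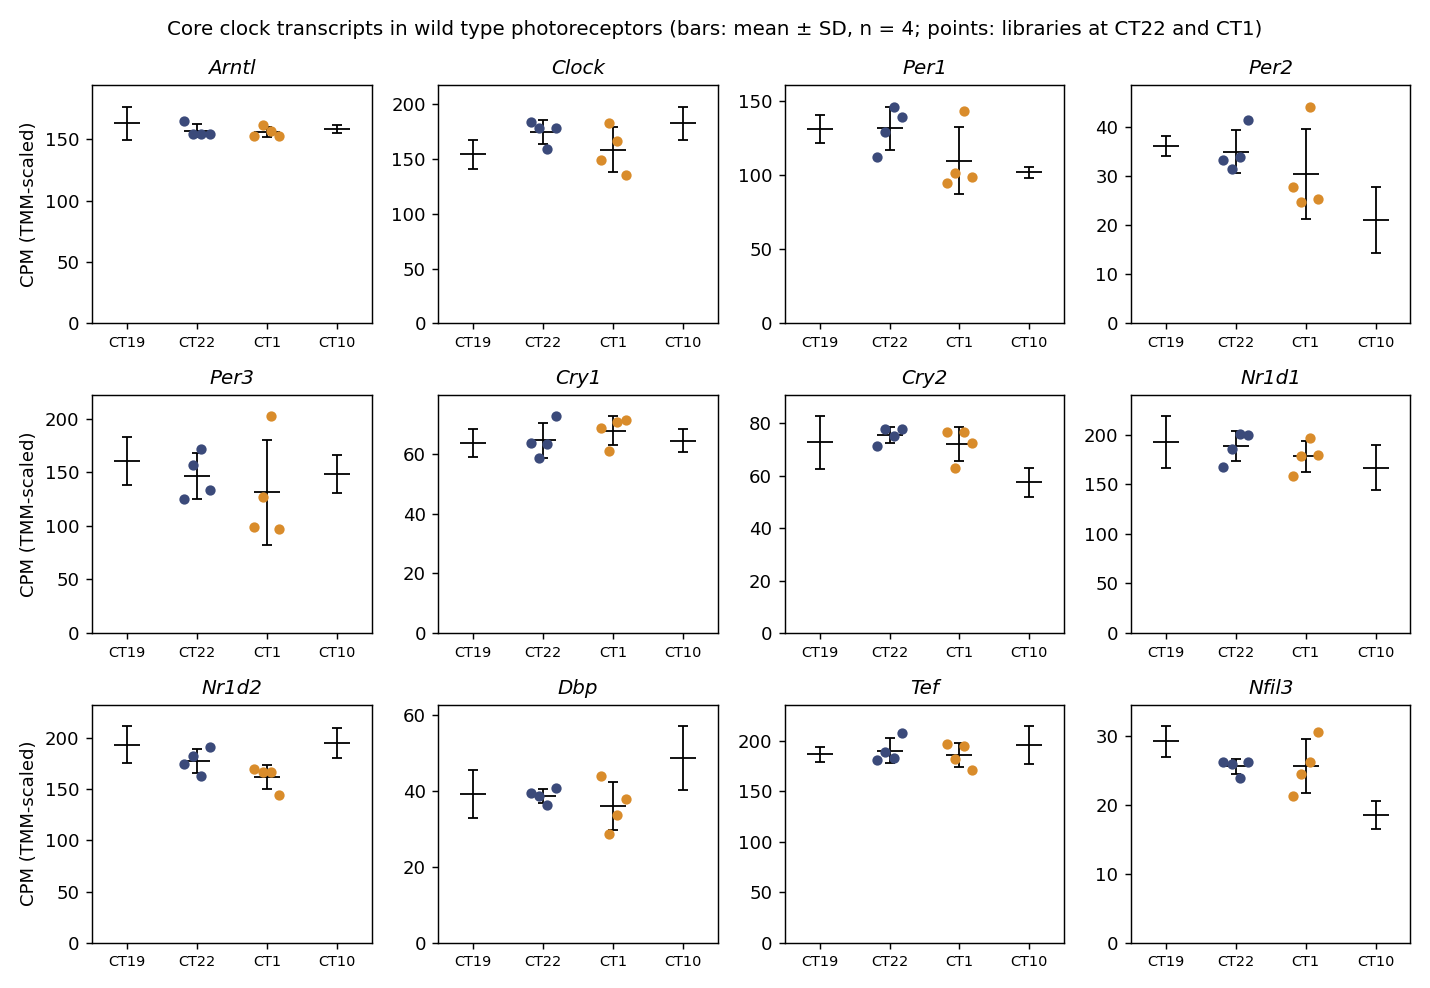
Levels of clock genes in wild type photoreceptors (CPM, linear axis from 0) at the 4 circadian times. Points at CT22 and CT1 are single libraries, and black dashes with bars are the mean ± SD of 4 libraries. The CT22 and CT1 points of Arntl interleave at 152.5 to 164.7 CPM, and 1 CT1 library stands above the other 3 for Per1, Per2 and Per3.

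A later interval gave calls in the same fit. Between CT1 and CT10 (CT10 minus CT1), 1036 of 17871 genes passed (5.8%), a comparison that shares the CT1 libraries and was added after the data were seen. The clock list then held 3 called members of 24. Dbp rose by 0.43 ± 0.12 (edgeR adjusted p = 0.036), while Cry2 fell by 0.33 ± 0.08 (adjusted p = 0.017) and Csnk1e, a kinase of the PER proteins, fell by 0.30 ± 0.08 (adjusted p = 0.024). The count of calls was 480 without CT1 replicate 1, 515 without CT1 replicate 5, and 627, 613, 684 and 702 without CT10 replicate 1, 2, 4 and 5. It was higher than 1036 without CT1 replicate 3, at 1459, and without CT1 replicate 4, at 1122. Over the 3 hours before, CT22 minus CT19, which shares the CT22 libraries, edgeR called 0 genes, with 1213 (6.79%) at an unadjusted p under 0.05, and DESeq2 called 2. The interval from CT1 to CT10 is longer than these 3-hour steps, so its count is not set against theirs.

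The genes that handle phosphatidylserine gave no call and no small p. Of 19 tested members of the list of flippases and scramblases, 0 passed the test. An unadjusted p under 0.05 was seen in 0, against 10.5% of all genes. Their median difference was -0.03, with 8 above 0 and 11 below, and the interval lay within 1.5-fold for 10 of the 19. The other 5 members of the list (Atp8b1, Tmem30b, Ano5, Xkr9 and Plscr2) fell under the count filter, and Tmem30b and Ano5 had no count in the 8 libraries.

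Atp8a2, a flippase of photoreceptor outer segments, stood at 456.6, 462.9, 445.7 and 476.4 CPM at CT22 and at 413.0, 532.3, 485.6 and 381.4 CPM at CT1. The CT1 libraries lay on both sides of all 4 CT22 libraries, and the difference was -0.02 (interval -0.23 to 0.19). Atp11a and Atp11b, flippases of the plasma membrane and of inner membranes, gave -0.18 (interval -0.38 to 0.03) and -0.03 (interval -0.25 to 0.18). Atp8a1 gave -0.20 ± 0.10, the smallest adjusted p of the list at 0.485, and shares exons with a gene on the other strand. Tmem30a, the subunit that most of these flippases need to leave the endoplasmic reticulum, gave 0.04 (interval -0.19 to 0.27). Scramblases let the lipid reach the outer face. Among them Ano6 stood at 1.02 to 3.31 CPM and Xkr8 at 0.64 to 2.48 CPM over the 8 libraries, with intervals of -0.58 to 0.82 and -0.47 to 0.84.

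Of the genes for bridging proteins, receptors and engulfment, none of the 23 tested members passed, and Cd36 fell under the count filter. Unadjusted, 2 members (Cd47 and Cx3cl1) were under 0.05, both lower at CT1, against 10.5% of all genes. The median difference was -0.02, and the interval lay within 1.5-fold for 11 of the 23. The receptors act in the pigment epithelium, so their RNA in cut photoreceptors does not measure the receiving side.

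The bridging proteins were among the precisely measured members. Gas6, which links phosphatidylserine to the receptor MERTK, stood at 271.6 to 332.7 CPM at CT22 and 286.2 to 346.3 at CT1, with a difference of 0.03 (interval -0.15 to 0.21). Mfge8, which links it to the integrin made of Itgav and Itgb5, stood at 331.2, 284.1, 357.3 and 389.9 CPM at CT22 and at 368.1, 400.3, 326.4 and 455.0 CPM at CT1. The 2 sets overlapped, and the difference was 0.19 ± 0.12 (interval -0.06 to 0.44). Tulp1 and Tub, tubby-family proteins described as ligands of MERTK, gave 0.07 (interval -0.11 to 0.25) and -0.12 (interval -0.34 to 0.09). Pros1, the other ligand of the family of MERTK, stood at only 2.03 to 3.20 CPM. Exons of Gas6, Tub and Rac1 overlap a gene on the other strand.

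Cd47, a surface protein known as a signal against engulfment, was the only member of this list whose groups did not overlap. Cd47 (ENSMUSG00000055447, GRCm38 chromosome 16, 49800533 to 49915010) stood at 57.1, 62.6, 67.2 and 60.8 CPM at CT22 and at 52.5, 51.1, 56.5 and 49.0 CPM at CT1. All 4 CT1 libraries lay below all 4 CT22 libraries, as they did for 1.72% of all genes. The difference was -0.25 ± 0.08 (interval -0.42 to -0.07) and did not pass, with an adjusted p of 0.367.

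Cx3cl1, a membrane-bound chemokine of neurons, stood at 4.38, 7.27, 4.74 and 5.33 CPM at CT22. At CT1 it stood at 6.84 CPM in replicate 1 and at 3.20, 1.69 and 1.504 in the others, so 1 library lay in the CT22 range and 3 lay below it. The difference was -0.70 ± 0.32 (adjusted p = 0.448) with all libraries. Without CT1 replicate 1 it was -1.34, with an adjusted p of 0.0489, while over all alternatives that p lay between 0.0489 and 1.

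The receptors were low or variable. Mertk, the receptor that triggers engulfment, stood at 1.99, 2.24, 1.04 and 1.72 CPM at CT22 and at 2.05, 0.84, 0.83 and 1.03 CPM at CT1, where replicate 1 was again the highest. Its difference was -0.54 (interval -1.38 to 0.30). Tyro3, a relative of Mertk, ranged from 6.17 to 24.5 CPM within CT22 alone, and its interval of -1.004 to 1.78 bounds little. Axl, the other relative of Mertk, gave -0.35 ± 0.32, and Lrp1, a large scavenger receptor, gave -0.62 ± 0.31. Itgav and Itgb5 gave -0.19 ± 0.20 and 0.10 ± 0.14. Inside the cell, Rac1 and Ptk2 (focal adhesion kinase) act downstream of the receptors and gave 0.07 ± 0.09 and -0.02 ± 0.08.

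**Figure D2:**
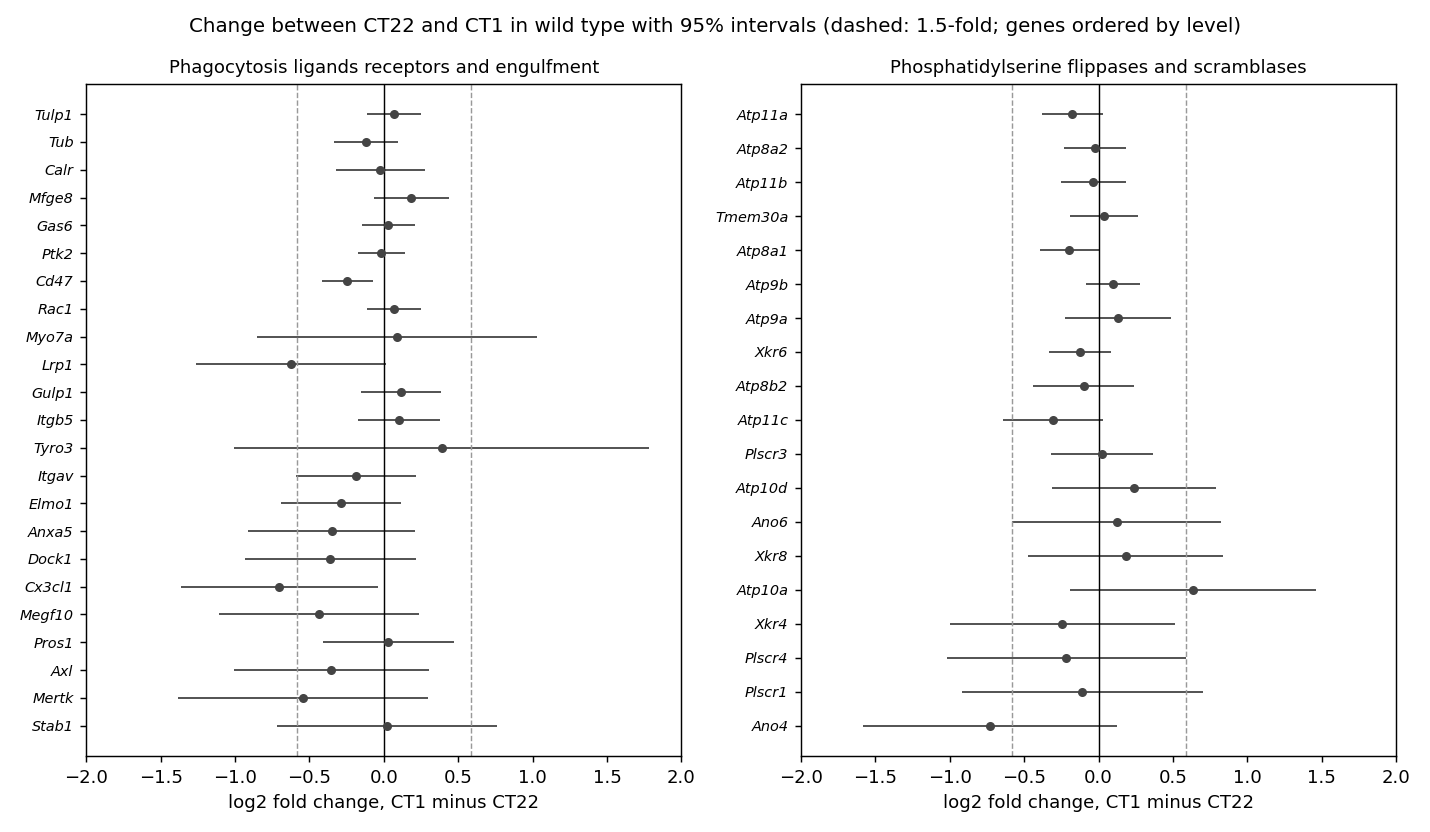
Differences between CT1 and CT22 in wild type photoreceptors (log2, CT1 minus CT22) for tested genes of phosphatidylserine handling and phagocytosis. Points are the fitted differences and bars their 95% intervals per gene. The dashed lines mark 1.5-fold. The intervals of Atp8a2, Atp11a, Atp11b, Tmem30a, Gas6, Mfge8, Tub and Tulp1 lie inside those lines, and that of Tyro3 runs past both.

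The genes of the light response and of the outer segment were also without a call. Of 21 rod phototransduction genes 17 were above 0, with a median of 0.09, and all 21 intervals lay within 2-fold. Guca1a, which activates the guanylate cyclases, was the only one with an unadjusted p under 0.05, at 0.34 ± 0.13 (adjusted p = 0.394), and at 0.17 with the lens level as a covariate. Of 13 cone genes 0 had an unadjusted p under 0.05, and the share over all genes was 10.5%. The genes Abca4 and Crx below, and members of small counts that the naming rule does not cover, were chosen after their values were seen.

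In the list of outer segment structure and cilium, 5 of 23 members had an unadjusted p under 0.05, against 10.5% of all genes, and none passed. Fscn2, an actin bundler of photoreceptors, stood at 120.8 to 125.1 CPM in all 4 libraries at CT22. At CT1 it stood at 180.1, 165.0 and 171.6 CPM in replicates 1, 3 and 5 and at 116.0 in replicate 4, below all CT22 libraries. The difference was 0.36 ± 0.15 (adjusted p = 0.422). The others were Arl3 at 0.31 and Unc119 at 0.24, both of lipidated-protein transport to the outer segment, Bbs4 of the ciliary BBSome at 0.18, and the pigment epithelium enzyme Rpe65 at -1.30. Of these 5, Bbs4 had groups that did not overlap, as did 3.65% of all genes.

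The retinoid cycle list held 5 members of 15 at an unadjusted p under 0.05, against 10.5% of all genes, of which none passed. Rdh12, a retinal reductase of photoreceptors, and Retsat were higher at 0.23 and 0.35, and Rpe65, Rdh5 and Stra6, which the pigment epithelium uses, were lower at -1.30, -0.54 and -0.65. Rpe65 was -0.45 without CT22 replicate 1, -1.97 with the lens level as a covariate and -0.45 with the pigment epithelium level. Rdh5 was -0.88 with the inner retina level, -0.32 with the lens level and -0.45 with the pigment epithelium level. Both genes are themselves markers in the pigment epithelium level. The transporter Abca4 stood at 2615 to 3005 CPM at CT22 and 2472 to 3211 at CT1, with a difference of 0.00 (interval -0.18 to 0.18). Among 15 photoreceptor transcription factors, 14 had an interval within 1.5-fold. Crx, which drives many photoreceptor genes, stood at 2418 to 2556 CPM at CT22 and 2475 to 2615 at CT1, a difference of 0.01 (interval -0.12 to 0.14).

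Signalling genes that follow light and neuronal activity gave a few values beside each other. Drd4, the dopamine receptor of photoreceptors, stood at 697 ± 31.7 CPM at CT22 and 717 ± 95.6 at CT1 (SD, n = 4 each), a difference of 0.04 (interval -0.18 to 0.26). In the comparison of CT10 with CT1, Drd4 fell by 1.12 ± 0.11 (adjusted p = 2.64e-07). Drd4 too was chosen after its values were seen. Drd2, the autoreceptor of dopamine amacrine cells, stood at 12.6, 16.2, 11.9 and 11.3 CPM at CT22 and at 10.98, 7.96, 4.74 and 6.02 CPM at CT1. All 4 CT1 libraries lay below all 4 CT22 libraries, as for 1.72% of all genes, with 10.98 against 11.3 CPM as the closest values. The difference was -0.80 ± 0.27 (adjusted p = 0.353). In the list of dopamine, melatonin and cAMP genes, 1 of 17 tested members had an unadjusted p under 0.05, against 10.5% of all genes.

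Immediate early genes are switched on within minutes of stimulation. Of 17 tested, 4 had an unadjusted p under 0.05, against 10.5% of all genes, and none passed. Nr4a1, an orphan nuclear receptor, stood at 107.7, 105.6, 138.7 and 145.2 CPM at CT22 and at 72.8, 51.7, 109.4 and 97.5 CPM at CT1. The sets overlapped through CT1 replicate 4, and the difference was -0.59 ± 0.23 (adjusted p = 0.405). Nr4a3 and Egr3 were lower at -0.93 and -1.68, and Btg2, an antiproliferative gene, was higher at 0.30. Fos and Egr1 were not among these 4.

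Metabolic and stress lists were close to 0 in the median. The medians were 0.02 for glycolysis, 0.00 for fatty acid oxidation, 0.06 for autophagy and lysosome and -0.02 for the unfolded protein response. In cholesterol synthesis 4 of 19 members had an unadjusted p under 0.05, 3 higher and 1 lower, against 10.5% of all genes, and none passed. Among them were Msmo1, a sterol oxidase, at 0.21 ± 0.08 (adjusted p = 0.398) and Mvk, mevalonate kinase, at 0.25 ± 0.12 (adjusted p = 0.461). All 11 tested genes of the mitochondrial genome lay below 0, with a median of -0.15, and their share of the counts was 1.07% to 1.76% at CT1 and 1.44% to 1.76% at CT22.

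The genes with the smallest p in each direction are given as values that did not pass. Their adjusted p lay between 0.242 and 0.325, and they were chosen by their p in this comparison, so their differences are a description. In 10 of the 12 the groups did not overlap, as in 3.65% of all genes, and picking by small p favours such genes. The exceptions were Hmox1 and Mrpl55.

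Mtbp, which binds the p53 regulator MDM2, stood at 7.85, 8.60, 7.58 and 7.30 CPM at CT22 and at 9.87, 12.8, 10.7 and 13.6 CPM at CT1. Every CT1 library was above every CT22 library, and the difference was 0.58 ± 0.12 (adjusted p = 0.242). Its exons (GRCm38 chromosome 15, 55557408 to 55626423) overlap a tested gene on the other strand, as do those of Faap24, Arsg and Ispd. Faap24, of the Fanconi anaemia DNA repair complex, gave 0.80 ± 0.19, and Mrpl55, a mitochondrial ribosomal protein, gave 0.52 ± 0.13. Arsg, a lysosomal sulfatase, gave 0.40 ± 0.10, and Ispd, of dystroglycan glycosylation, gave 0.50 ± 0.12.

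Hmox1, the haem-degrading enzyme induced by oxidative stress, had the largest difference of the 12. It stood at 4.04, 3.39, 3.97 and 8.42 CPM at CT22 and at 17.3, 10.7, 8.16 and 47.2 CPM at CT1. The highest library at each time, replicate 6 at CT22 and replicate 5 at CT1, was also the one with the most lens RNA. The difference was 2.07 ± 0.47 (adjusted p = 0.325), and with the lens level as a covariate it was 0.89 (adjusted p = 0.592).

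Among the lower 6, Wnk4, a kinase that regulates ion transport, stood at 3.37, 5.63, 3.88 and 3.93 CPM at CT22 and at 1.99, 2.40, 2.29 and 1.81 CPM at CT1. All CT1 libraries were below all CT22 libraries, and the difference was -0.98 ± 0.21 (adjusted p = 0.242). The others are genes of neurons or of transcription: the splicing factor Nova1 at -0.70, the synaptic adhesion proteins Igsf9b at -0.86 and Mdga1 at -0.95, the GABA receptor subunit Gabrr2, known from bipolar cells, at -0.68, and the transcription factor Foxp4 at -0.38. Elfn2, an adhesion protein of synapses, had groups that did not overlap, at 31.2 to 34.96 CPM against 19.5 to 25.7. The CT1 group lay entirely below for 1.72% of all genes. Elfn2 gave -0.48 ± 0.16 (adjusted p = 0.341).

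DESeq2 called 6 of these 12 genes, Mtbp, Hmox1 and Faap24 as higher and Wnk4, Nova1 and Igsf9b as lower. It also called the protease gene Cela1 as higher, and Pcdhb4, of the clustered protocadherins, and Gm3764 as lower. The DESeq2 adjusted p of the 9 lay between 0.0145 and 0.0422, while edgeR gave them 0.242 to 0.325.

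**Figure D3:**
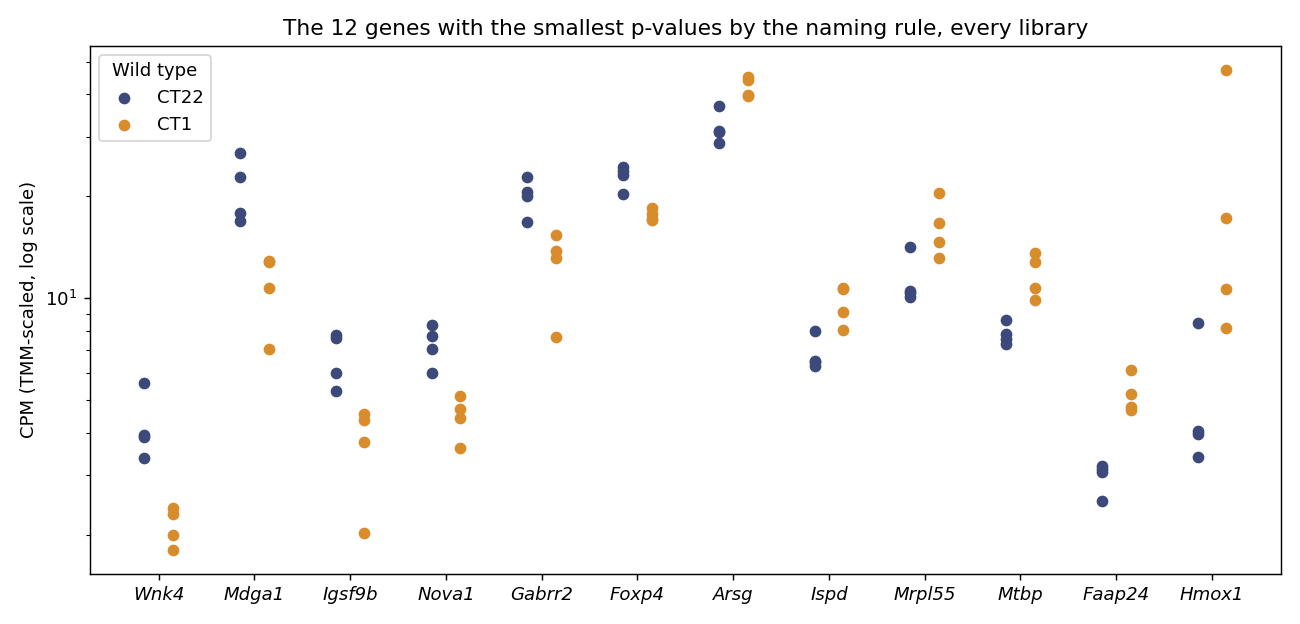
Levels in single wild type libraries at CT22 and CT1 (CPM, log axis) of the 12 genes with the smallest p, 6 higher and 6 lower at CT1. Points are libraries. None of the 12 passed the test, and the points of the 2 times are apart in all but Hmox1 and Mrpl55.

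Of the 34 lists, those of lens (94.1%), horizontal cell (57.1%) and bipolar cell (50%) markers held the highest shares of genes with an unadjusted p under 0.05. In tissue of this kind, fewer cells of a type and less RNA per cell cannot be told apart. The markers of the labelled cell type were abundant at both times: the 15 photoreceptor markers summed to 98810 to 131000 CPM at CT22 and 110800 to 147700 at CT1, with 14 of 15 above 0 and none with an unadjusted p under 0.05. All counts of markers that follow are at an unadjusted p under 0.05, against 10.5% of all genes, and no marker passed the adjusted test.

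Lens genes had the largest median difference of the 34 lists. Of 17 markers 16 were higher at CT1, with a median of 2.42. Their summed level was 821.6, 916.0, 286.7 and 4139 CPM at CT22 and 7409, 4066, 4955 and 16020 CPM at CT1. CT22 replicate 6 thus lay above 1 CT1 library, and CT1 replicate 5, with 2 animal numbers in its title, was the highest of all. Crybb3, a lens crystallin, stood at 5.07 to 15.98 CPM in 3 CT22 libraries, at 96.4 in replicate 6, and at 98.2 to 434.9 CPM at CT1. Hspb1, a small heat shock protein, stood at 0.46 to 0.91 CPM in 3 CT22 libraries and 7.90 in replicate 6, against 6.43 to 28.1 at CT1. Its difference of 2.37 ± 0.98 became -0.09 with the lens level as a covariate.

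Most markers of bipolar, horizontal, amacrine and Müller cells lay below 0. Of 14 bipolar cell markers 7 were lower and all 14 lay below 0, with a median of -0.46. Their summed level was 984.8 to 1187 CPM at CT22 and 782.5 to 978.3 at CT1, so the groups did not overlap. Grm6, the glutamate receptor of ON bipolar cells, stood at 39.7, 53.1, 39.6 and 33.9 CPM at CT22 and at 32.9, 25.4, 14.1 and 8.21 CPM at CT1, where replicate 1 came close to the CT22 libraries. Of 7 horizontal cell markers 4 were lower, with summed levels of 168.3 to 215.6 CPM at CT22 and 129.2 to 157.8 at CT1. Amacrine markers had 2 of 12 lower, Müller glia 1 of 14 and pigment epithelium 3 of 13. The summed levels of amacrine markers overlapped, at 156.7 to 197.7 CPM at CT22 and 127 to 186.1 at CT1. Those of Müller markers did too, at 899.9 to 1131 CPM at CT22 and 657.8 to 1063 at CT1. Ganglion cell markers, also of the inner retina, had 0 of 10, with 4 above 0, 6 below and a median of -0.08. Several differences described above changed when marker levels entered the fit. The inner retina level, used as a covariate, was the mean log level of the bipolar, amacrine and Müller markers, without the horizontal ones. With it the difference was -0.26 for Drd2, -0.06 for Lrp1, -0.24 for Cx3cl1, 0.10 for Mertk, -0.07 for Bhlhe40 and -0.58 for Mdga1. Cd47 stood at -0.22. With the lens level added the difference was -0.09 for Cd47, -0.23 for Gabrr2, -0.43 for Nova1 and 0.23 for Arsg. Others moved less under both levels, with Igsf9b at -0.83, Foxp4 at -0.39, Elfn2 at -0.46, Faap24 at 0.70 and Mtbp at 0.45. Rpe65 moved further from 0, to -2.68, whereas with the pigment epithelium level alone it was -0.45. Rpe65 is itself a marker in that level. The covariates also overlap in time with the groups compared, so cell mixture and time cannot be fully told apart.

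**Figure D4:**
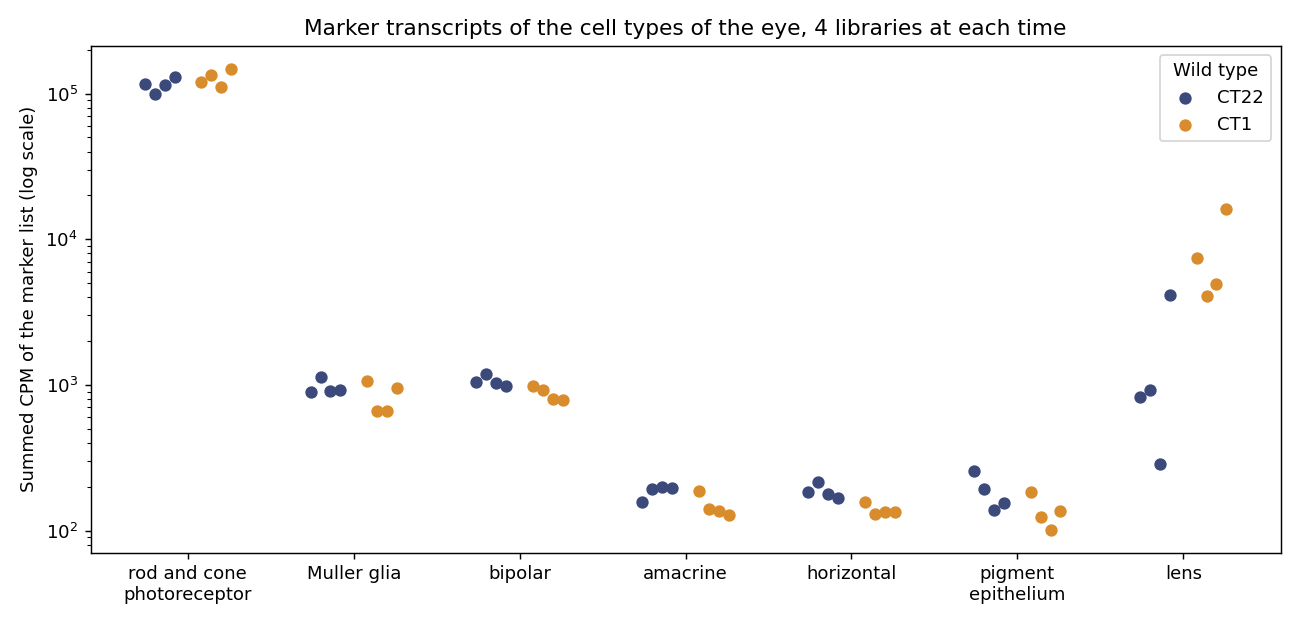
Summed levels of cell type markers (CPM, log axis) in single wild type libraries at CT22 and CT1. Points are libraries. Lens sums run from 286.7 to 4139 CPM at CT22 and from 4066 to 16020 at CT1, while bipolar and horizontal sums are lower in every CT1 library and photoreceptor sums overlap.

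CT1 replicate 1 held the most inner retina RNA of its group, with bipolar, amacrine, horizontal and Müller sums above those of the other 3. Without it, edgeR called 28 genes, 1 higher (Mtbp) and 27 lower. In all 27 replicate 1 had the highest level of the CT1 libraries, and in 22 it reached the lowest CT22 library or more. These 27 genes passed only without replicate 1, so its high level in them follows largely from how they were picked. They include Grin1, a subunit of NMDA receptors, at -1.43, the long non-coding RNA Meg3 at -1.44, the potassium channel gene Kcnd3 at -0.98 and Cpt1c, a carnitine palmitoyltransferase of neurons, at -1.16, each chosen after its values were seen. None of the 27 is in the bipolar, amacrine, Müller or horizontal lists. These lists hold only 14, 12, 14 and 7 of the 17871 genes tested in the main fit. Any 27 genes would thus rarely include a member, and the absence tells little about cell mixture. Leaving out any 1 of the other 7 libraries gave 0 calls, with 914 to 2775 genes at an unadjusted p under 0.05.

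The same step in the mutant photoreceptors gave 0 calls by edgeR, with 935 genes (5.23%) at an unadjusted p under 0.05, and 0 by DESeq2. The test of the difference, the wild type step minus the mutant step, gave 0 calls by edgeR, a smallest adjusted p of 0.649 and 1258 genes (7.04%) at an unadjusted p under 0.05. DESeq2 called 3 genes in that difference, Mlx, Wrb and Smarca2. The steps of the 2 genotypes are therefore not shown to differ for any gene by the edgeR test.

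In the clock list the widest gap between the steps was that of Rorb, whose wild type step was -0.05 with the lens level as a covariate. The mutant libraries stood at 740 ± 75.7 CPM at CT22 and 921 ± 132 at CT1 (SD, n = 4 each), a step of 0.32, against -0.25 in wild type. The difference was -0.57 (interval -0.92 to -0.22, adjusted p = 0.649). Rora and Clock gave -0.36 and -0.32 in the same direction. For Arntl the difference was -0.05 ± 0.09. Lens markers had a median step of 2.42 in wild type and 1.67 in the mutant, and bipolar markers -0.46 and -0.43. Pigment epithelium markers had medians of -0.24 in wild type and 0.73 in the mutant.

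**Figure D5:**
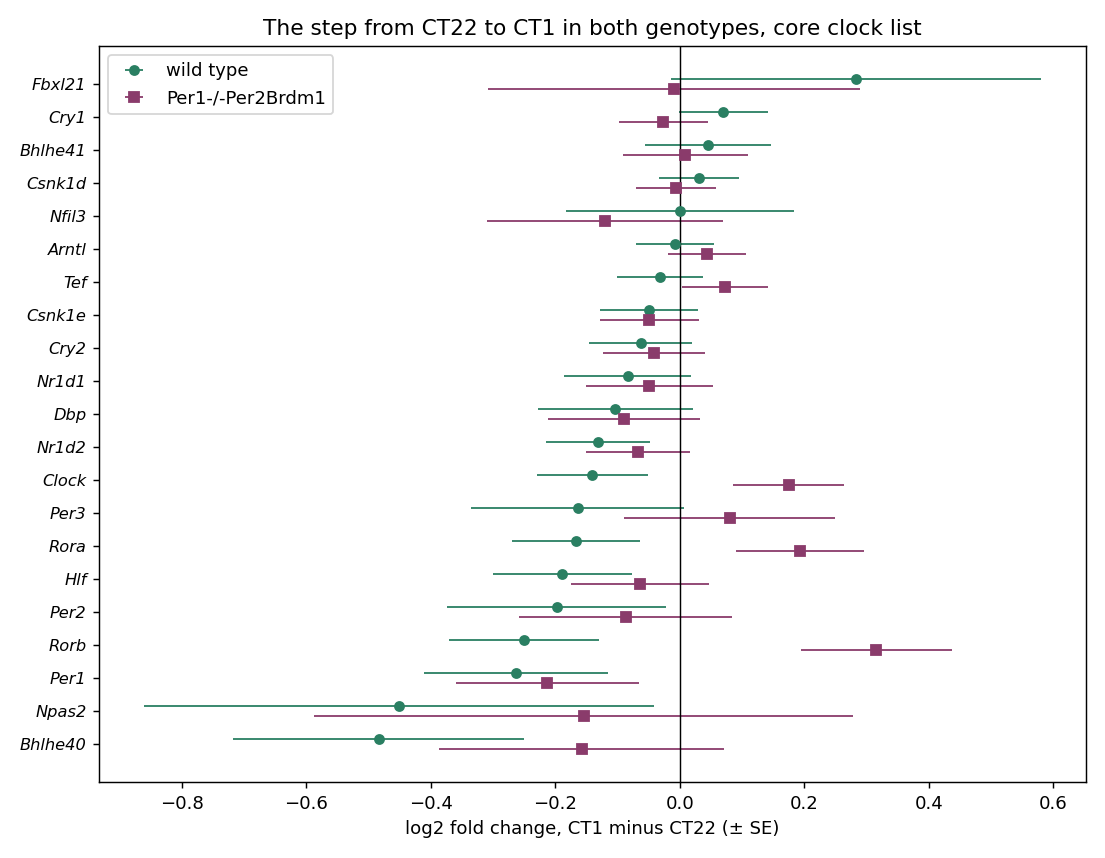
Step from CT22 to CT1 (log2, CT1 minus CT22) of the core clock genes named in the text, in wild type and mutant photoreceptors, as fitted differences (points) with their SE (bars). Rorb shows -0.25 in wild type against 0.32 in the mutant.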

How the data were processed

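The deposited values are the authors' raw read counts, 1 column for each of 32 libraries over 54232 Ensembl genes. HISAT2 2.1.0, HTSeq 0.11, Trimmomatic 0.32 and Cufflinks are named in the submitters' processing notes, with genome build GRCm38.p6. The sources used here name neither the annotation release nor the strand setting. Per the labels' protocols, extraction used the Qiagen RNeasy Micro kit and library construction the KAPA mRNA HyperPrep kit. Names and positions came from GENCODE M21 of GRCm38, which matched 99.7% of the identifiers.

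The analysis ran in edgeR 4.0.16 under R 4.3.3. filterByExpr (minimum count 10, minimum total 15) kept 17871 genes, libraries were scaled by TMM, and all 32 entered 1 fit with a mean per group (24 residual degrees of freedom), and contrasts were tested with the robust quasi-likelihood method. The Benjamini-Hochberg adjustment ran over all tested genes, with 0.05 as threshold, and an adjusted p without another tool's name is from this test. The 95% intervals are the fitted difference ± a t quantile times its SE. CPM values are TMM-scaled. The procedure was tested on simulated data. No 2 libraries of a group were identical: their counts differed by more than sampling noise in all 12 pairs (17.6 to 66.8 for chi-square divided by its degrees of freedom).

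The comparison, the gene lists (21 pathway and 13 marker lists) and the alternatives were chosen with earlier results of these data known. The naming rule took, in each direction, called genes, or the 6 smallest p where fewer passed, with an average log2 CPM of at least 1, plus the clock, phosphatidylserine and phagocytosis lists and the 2 smallest p of each other list. Alternatives were DESeq2 1.42.0, RLE size factors, no count filter, marker levels as covariates, library sizes without lens genes, fewer libraries, a replicate block and leaving out each library. A few members of the lists are not reported by name.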

Additional observations from a re-analysis of the deposited data

Results flagged for a closer look

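In each group of 4 libraries, a library was singled out where its gap to the nearest other exceeded Dixon's 95% critical share of the group's range. This held in 21 of 272 groups of named genes, and chance alone gives about 1 in 20 groups. The gap is no sign of an error in a library.

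CT22 replicate 6 stood high in 6 of the 21. It held Crybb3 at 96.4 CPM against 5.07 to 15.98 in the others, Cryga at 13.4 against 0.89 to 2.97, Hspb1 at 7.90 against 0.46 to 0.91, Hmox1 at 8.42 against 3.39 to 4.04, Mrpl55 at 14.1 against 10.1 to 10.5 and Ispd at 7.97 against 6.29 to 6.53. Crybb3 and Cryga are lens crystallins, and this library had the highest lens sum of the CT22 group.

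CT1 replicate 4 stood high for Per1 at 143.2 CPM (others 94.4 to 101.4) and Per2 at 44.3 (others 24.9 to 27.8), and low for the glial calcium-binding protein S100b at 0.56 (others 0.76 to 0.78). CT1 replicate 1 stood high for Mertk at 2.05 CPM (others 0.83 to 1.03), the kinase Plk2 at 3.78 (others 1.999 to 2.18) and the microglial receptor Csf1r at 1.47 (others 0.56 to 0.65). CT1 replicate 3 stood high for Ptk2 at 64.5 CPM (others 57.9 to 58.3) and low for Sept4 at 68.7 (others 85.8 to 87.5), and CT1 replicate 5 stood low for Nr1d2 at 144.7 (others 166.9 to 169.9).

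At CT22, replicate 1 stood high for Arntl at 164.7 CPM (others 153.9 to 154.5) and low for Stab1 at 0.95 (others 1.47 to 1.53). Replicate 2 stood high for Ano6 at 2.59 CPM (others 1.71 to 1.77) and Elmo1 at 10.2 (others 7.95 to 8.21), and low for Xkr6 at 27.5 (others 28.3 to 28.4). Replicate 3 stood low for Nfil3 at 23.9 CPM (others 25.9 to 26.2).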

How the results depend on the processing

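The absence of calls between CT22 and CT1 in wild type held under RLE size factors, no count filter, each marker covariate, library sizes without lens genes, the 16 wild type libraries and the 8 libraries compared. The exceptions were DESeq2 with 9 calls, the replicate block with 2 (Birc7 and Tent5c), and leaving out 1 library at a time, which gave 0 to 28 calls. Numbers 1 and 3 occur at both times, but the deviations of the same-numbered libraries correlated at -0.054 and -0.077. CT1 replicate 5, whose title also holds number 6, correlated at 0.097 with CT22 replicate 6. Pairs with unlike numbers ran from -0.262 to 0.14, so these correlations cannot tell a shared animal from separate ones. Apart from the replicate block, the fits take all libraries as separate animals. For the wild type step minus the mutant step, DESeq2 gave 3 calls. For CT22 against CT19, DESeq2 gave 2 and the fit of only the compared libraries 1. For CT10 against CT1, the main 1036 calls became 618 with no count filter, 647 with the replicate block, 634 with the 16 wild type libraries, 192 with only the compared libraries, 1583 with DESeq2, and 480 to 1459 on leaving out 1 library. The cause of these shifts was not tested, except that fewer libraries leave fewer degrees of freedom.

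For 77 genes named in the text there were 1463 values under alternatives. Of these, 1380 kept their sign and their side of the threshold, 9 kept their sign and passed the threshold, and 74, of 29 genes, changed sign. With the lens level as a covariate the log2 differences of changed sign were Arntl 0.026, Nfil3 -0.017, Csnk1e 0.072, Atp11b 0.033, Ano6 -0.092, Itgb5 -0.089, Rac1 -0.059, Ptk2 0.021, Hspb1 -0.094 and Cryga -0.11. With the inner retina level they were Cry2 0.030, Dbp 0.066, Tef 0.0091, Bhlhe41 -0.020, Gas6 -0.048, Tulp1 -0.064, Mertk 0.10, Axl 0.22, Itgav 0.13 and Elmo1 0.096. With both levels, an alternative chosen after seeing the data, they were Arntl 0.0027, Nr1d1 0.023, Hlf 0.0057, Bhlhe41 -0.043, Csnk1e 0.038, Gas6 -0.015, Tulp1 -0.099, Itgav 0.15, Elmo1 0.0047, Ptk2 0.048, Hspb1 -0.085 and Plk2 0.16. With the replicate block they were Arntl 0.00054, Nfil3 -0.040, Atp8a2 0.0036, Atp11b 0.024, Ano6 -0.22 and Ptk2 0.029. Nfil3 was -0.025 and Stab1 -0.021 with the pigment epithelium level, Nfil3 was -0.0048 with library sizes without lens genes, and Arntl was 0.0021 with no count filter and 0.0012 with the 16 wild type libraries. On leaving out 1 library at a time, the differences that changed sign ranged for Arntl from -0.025 to 0.016, Atp8a2 -0.11 to 0.043, Atp11b -0.090 to 0.023, Xkr8 -0.34 to 0.41, Pros1 -0.094 to 0.13, Ptk2 -0.055 to 0.030, Csnk1e -0.12 to 0.0071, Tmem30a -0.020 to 0.14, Stab1 -0.26 to 0.31, Nfil3 -0.10 to 0.089, Bhlhe41 -0.062 to 0.14, Csnk1d -0.014 to 0.070, Ano6 -0.18 to 0.35, Tef -0.056 to 0.023, Gas6 -0.033 to 0.074 and Rac1 -0.00071 to 0.11. Low genes rest on few counts, since 1 CPM was 23.3 counts in the smallest of the 8 libraries.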
